A study of Mus musculus with 9 samples.

Results

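The annexin and S100 genes of NMuMG cells, an epithelial cell line derived from mouse mammary gland, were examined in RNA-Seq libraries of cells overexpressing the long non-coding RNA EPR (BC030870). Genes were taken by symbol alone, which gave 29 of the 52459 gene symbols in the files. They comprise 12 annexin genes, 16 S100 genes and *S100pbp*, which encodes a protein that binds an S100 protein and is not itself an S100. Annexins are cytoplasmic proteins that attach to acidic phospholipids of membranes when calcium rises, and they take part in vesicle traffic, in the sealing of membrane wounds and in linking membranes to actin. S100 proteins are small EF-hand proteins that mostly act as dimers and, once loaded with calcium, bind target proteins, among them several annexins. Some S100 proteins are also released from cells and act on receptors, and most S100 genes sit together in the epidermal differentiation complex, a gene cluster known for its activity in stratified and stressed epithelia.

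The 9 libraries fall into 3 groups of 3, named here by their library numbers. Mock cells carried the empty pBICEP vector (libraries 203 to 205), EPR cells carried the full transcript (206 to 208) and EPRSTOPE cells carried a point mutant in which a codon of the open reading frame was turned into a stop, so that the RNA but not its small peptide is made (209 to 211). All cells, mock included, were stable transfectants kept as pools under G418, a drug that kills cells without the vector, and were otherwise untreated. The comparison of EPRSTOPE with mock asks what the overexpressed RNA changes without its peptide. That of EPR with mock asks what the RNA and the peptide change together, and that of EPR with EPRSTOPE asks what depends on the peptide. The methods speak of biological triplicates and the labels do not say whether the libraries of a group came from separate pools or cultures, so p-values measure the spread between these libraries, which may be technical.

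Libraries held 5972457 to 11876435 estimated counts, and levels are given as counts per 1000000 counts of the library after TMM normalization (CPM), on which scale 3 counts correspond to 0.244 to 0.508 CPM. The transgene checked the labels. *BC030870* stood at 0, 0 and 0.163 CPM in mock, 23.7, 27.0 and 23.9 CPM in EPR, and 4.74, 4.17 and 3.80 CPM in EPRSTOPE libraries. EPR RNA was thus 5.90-fold higher in EPR than in EPRSTOPE cells, and in every difference between these populations the absent peptide and the lower amount of RNA cannot be told apart. Summed over 10 epithelial markers, levels were 3693 to 4158 CPM in mock, 9490 to 10600 CPM in EPR and 10680 to 11020 CPM in EPRSTOPE libraries. *Krt8* and *Krt18* were abundant in every group. *Cdh1*, the main cadherin of epithelia, stood at 0.311 to 1.16 CPM in mock, 542 to 569 CPM in EPR and 381 to 427 CPM in EPRSTOPE libraries, and *Krt7* was higher with EPR alone, at 1.87, 9.11 and 1.44 CPM on average in the 3 groups. *Epcam* was at 0 in mock libraries, at 2.40 to 4.30 CPM in EPR and at most 0.214 CPM in EPRSTOPE libraries, and *Cldn3*, *Cldn4*, *Cldn7* and *Esrp1* had 0 to 4 counts in any library. Summed over 7 basal or myoepithelial markers, levels were 10.9 to 13.4 CPM in mock, 1.68 to 1.92 CPM in EPR and 2.99 to 3.56 CPM in EPRSTOPE libraries, with *Trp63* at 0 in all. Most of this fall was *Acta2*, at 10.1, 1.17 and 0.801 CPM on average in the 3 groups. *Krt14* averaged 0.896, 0 and 2.32 CPM, and its rise in EPRSTOPE over mock libraries was without overlap but not called. Summed over 9 fibroblast markers, almost all of it *Vim*, levels were 2536 to 2745, 1644 to 1843 and 3016 to 3234 CPM. *Vim* was called lower with EPR (log2 fold change -0.58, edgeR adjusted p = 2.5e-06). *Pdgfra*, the only other fibroblast marker tested, was at 0 in mock libraries. It was called higher in both populations, at 1.19 CPM in EPR and 1.30 CPM in EPRSTOPE libraries on average. Endothelial markers summed to 11.2 to 17.4 CPM with overlap between groups. Epithelial, basal and fibroblast markers therefore moved with the groups compared below, and their part in the annexin and S100 results was not tested. The RNA came from whole cell populations, in which fewer cells of a kind and less RNA per cell cannot be told apart.

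The test covered 15370 genes, namely those that reached 1 CPM in 3 or more libraries. They included every annexin, 12 of the 16 S100 genes and *S100pbp*, which makes 25 of the 29 members. Calls of higher or lower needed an adjusted p under 0.01 together with a log2 fold change above 0.5 in size. The adjusted p is that of the quasi-likelihood test of edgeR, corrected over all 15370 genes by the Benjamini-Hochberg method. *S100a2*, *S100a5*, *S100b* and *S100z* were under the filter and did not exceed 0.641 CPM in any library.

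The 29 genes together took a larger share of the counts in EPR and EPRSTOPE than in mock libraries. The share was 0.717%, 0.763% and 0.740% in mock, 0.859%, 0.889% and 0.826% in EPR, and 1.0%, 1.03% and 0.977% in EPRSTOPE libraries, with no overlap between groups. In EPR against mock, 11 of the 25 tested genes were higher and 1 was lower, against 15.2% and 12.9% of all genes tested, which makes 28.1% called in either direction. In EPRSTOPE against mock, 12 were higher and 1 was lower, against 15.6% and 12.4% of all genes, or 28% in either direction. Of the annexins, 5 of 12 were higher and 1 was lower in each of these comparisons, and of the 12 tested S100 genes 6 were higher with EPR, 7 with EPRSTOPE and none was lower. *S100a8*, *S100a9*, *S100a14* and *S100g*, all among those higher in both, were under 1 CPM in every mock library. They passed the filter through the overexpressing libraries alone, so a lower call against mock was hardly possible for them. Their higher calls therefore add little to these counts. The median log2 fold change of the 25 genes was 0.34 with EPR and 0.45 with EPRSTOPE, beside -0.01 and -0.04 over all genes. Both comparisons use the same mock libraries.

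Between the overexpressing populations, 1 of the 25 genes was higher and 8 were lower in EPR than in EPRSTOPE cells, against 6.86% and 6.35% of all genes, or 13.2% in either direction. The lower ones were *Anxa2*, *Anxa6*, *Anxa7*, *Anxa8*, *Anxa11*, *S100a10*, *S100a13* and *S100a16*, and the higher one was *Anxa13*. The median log2 fold change of all 25 was -0.36, beside 0.01 over all genes. Groups did not overlap for 19 genes in EPR against mock, 21 in EPRSTOPE against mock and 16 in EPR against EPRSTOPE, whereas this held for 57.8%, 56.5% and 43% of all genes. An exact permutation test of 3 libraries against 3 cannot go below p = 0.1. In all, 16 of the 25 genes were called in at least 1 comparison, against 39.1% of all genes.

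**Figure D1:**
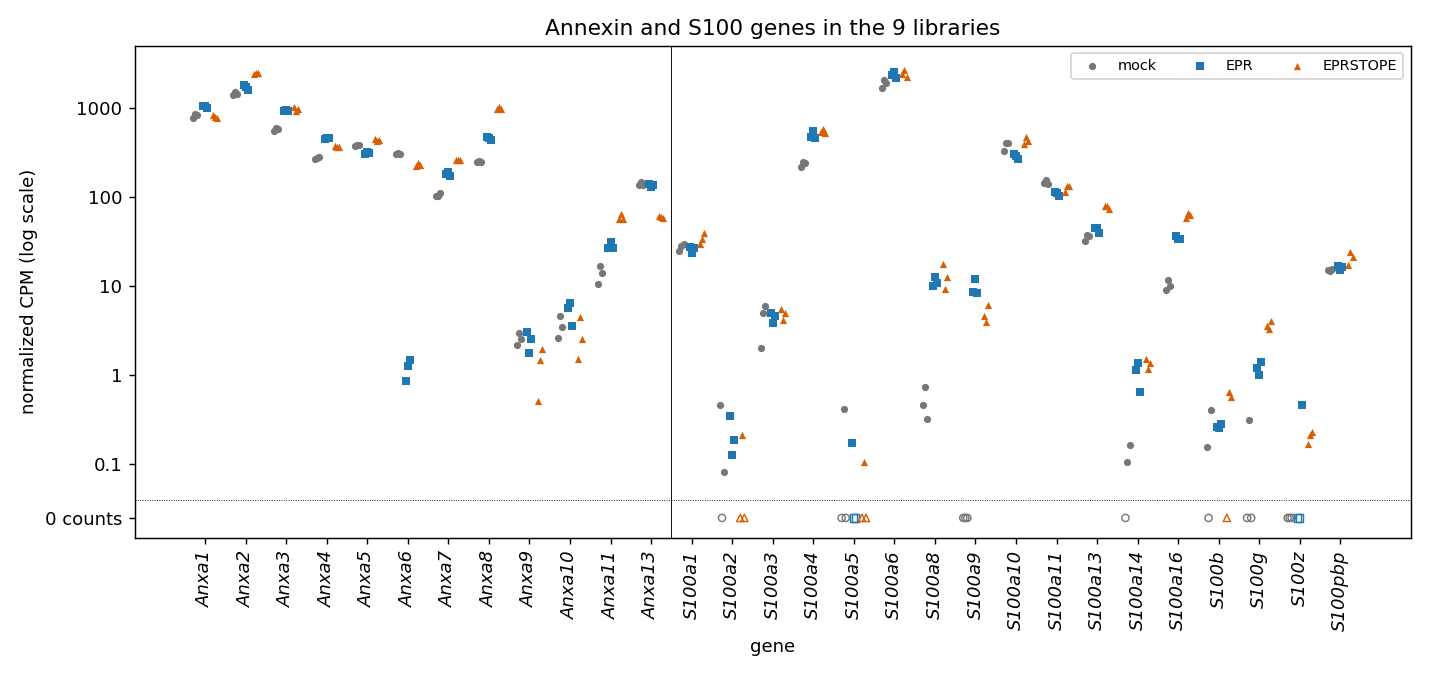
Normalized CPM on a log scale (vertical axis) of the 29 annexin and S100 genes (horizontal axis) in the mock, EPR and EPRSTOPE libraries, 1 point per library, with open symbols for libraries at 0 counts. *S100a6* and *Anxa2* are at the top in all groups, *Anxa6* drops to about 1 CPM in the EPR libraries alone, and *S100a9* is at 0 counts in all 3 mock libraries.

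**Figure D2:**
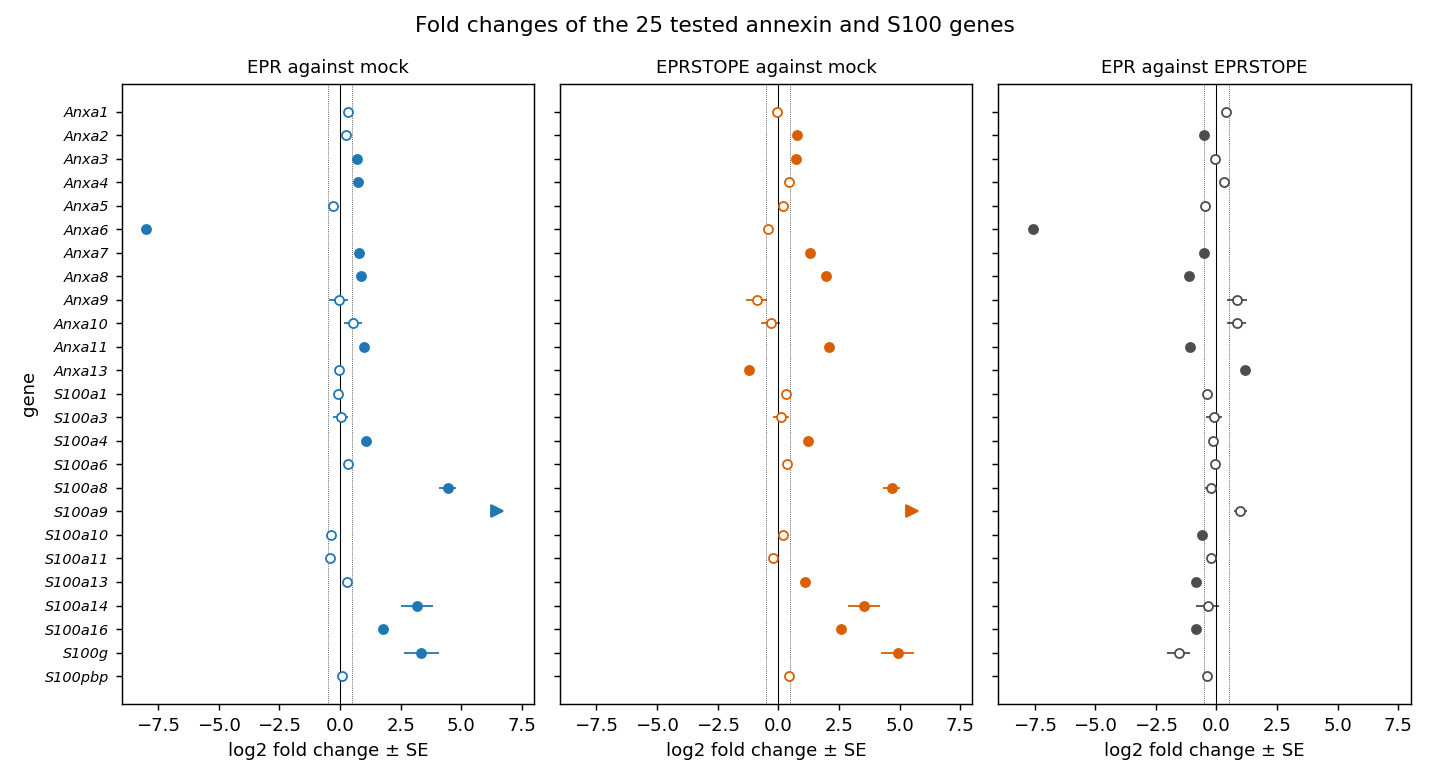
Log2 fold change ± SE (horizontal axis) of the 25 tested genes (vertical axis) in each comparison, with filled symbols for called genes, open symbols for the others, dotted lines at ±0.5 and triangles for lower bounds. Most called genes lie right of 0 against mock and left of 0 in EPR against EPRSTOPE, and *Anxa6* lies at -7.98 and -7.58 where EPR cells are compared.

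*Anxa6* had by far the largest decrease among the members, and it occurred in EPR cells. The gene encodes a large annexin with a duplicated core, which links cholesterol-rich membranes, endosomes and the actin skeleton. Its levels were 302, 313 and 306 CPM in mock, 0.873, 1.26 and 1.5 CPM in EPR, and 223, 240 and 232 CPM in EPRSTOPE libraries. Every EPR library was far below every other library, and the EPRSTOPE libraries lay somewhat below the mock libraries without overlap. The fold change was 253-fold down against mock (log2 fold change -7.98, SE 0.11, edgeR adjusted p = 8.5e-13) and 191-fold down against EPRSTOPE (log2 fold change -7.58, SE 0.11, edgeR adjusted p = 2.3e-12). In EPRSTOPE against mock it was -0.41 on the log2 scale (SE 0.07, edgeR adjusted p = 0.0005), under the size required for a call. That value passed the size required, at -0.53, when libraries were scaled by their totals alone. The study itself listed *Anxa6* as a gene that depends on the peptide, starting from these samples, so these values are not independent evidence of its direction. To narrow that list the study also used independent EPRSTOPE transfectant pools and qRT-PCR, and it examined a further mutant without the start codon.

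The EPR libraries retained 10, 10 and 16 estimated counts of *Anxa6* in all. *Anxa6* lies on the minus strand of chromosome 11 (GRCm38, 54979108 to 55033445). The annotation holds a pair of full-length coding transcripts, of 2471 and 2489 nt, that differ by 1 small coding exon, and this exon is shown because the residual counts fell on 1 of them. It is exon 21 of the 26 exons of *Anxa6-202*, has 18 nt and lies at chr11:54987051-54987068, and it is absent from *Anxa6-201*. In the line that follows, read 5′ to 3′ along *Anxa6-202*, capitals mark this exon and lower case marks the 30 nt of transcript on either side.
Anxa6-202, small exon: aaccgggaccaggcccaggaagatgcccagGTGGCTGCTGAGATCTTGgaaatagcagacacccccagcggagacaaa
*Anxa6-202*, which has the exon, took 40.4%, 36.2% and 54.1% of the counts of the pair in mock libraries and 52.6%, 38.8% and 44.8% in EPRSTOPE libraries. In EPR libraries all remaining counts were assigned to *Anxa6-201*, and *Anxa6-202* was at 0 of 36 counts, which allows a share of up to 8.33%. With so few counts, and with Kallisto sharing reads between nearly identical transcripts, the share in EPR cells is imprecise.

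*Anxa3*, *Anxa7*, *Anxa8* and *Anxa11* were the annexins called higher in both populations, and the last 3 stepped up from mock to EPR to EPRSTOPE. *Anxa8*, an annexin known from skin, placenta and parts of the mammary ductal epithelium, stood at 247, 255 and 251 CPM in mock, 473, 457 and 436 CPM in EPR, and 983, 1026 and 973 CPM in EPRSTOPE libraries. Its 3 groups were fully separated, with the highest level in EPRSTOPE cells. The log2 fold change was 0.86 with EPR (SE 0.05, edgeR adjusted p = 4.6e-08), 1.98 with EPRSTOPE (SE 0.05, edgeR adjusted p = 3.6e-11) and -1.13 in EPR against EPRSTOPE (SE 0.05, edgeR adjusted p = 2e-08). *Anxa11*, whose product has a long disordered N-terminus and tethers RNA granules to lysosomes, stood at 10.6, 17.1 and 14 CPM in mock, 26.9, 31.4 and 26.5 CPM in EPR, and 56.2, 64.7 and 57.4 CPM in EPRSTOPE libraries. The order of the groups was that of *Anxa8*, again without overlap. Its log2 fold changes were 1.0 with EPR (SE 0.14), 2.08 with EPRSTOPE (SE 0.14) and -1.08 in EPR against EPRSTOPE (SE 0.13), and all 3 passed the test. *Anxa7*, which encodes synexin, a protein that aggregates secretory granules, stood at 105, 104 and 112 CPM in mock, 183, 191 and 175 CPM in EPR, and 264, 263 and 260 CPM in EPRSTOPE libraries. It rose by 0.77 and 1.30 on the log2 scale against mock, and its difference of -0.52 between EPR and EPRSTOPE lay at the edge of the size required. That difference missed it at -0.48 with library totals alone or without library 208, at -0.49 with a stricter filter on counts and at -0.45 with counts scaled from TPM.

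*Anxa2*, *Anxa3* and *Anxa4* were abundant and changed less. *Anxa2*, whose product pairs with that of *S100a10* at the plasma membrane, stood at 1400, 1510 and 1447 CPM in mock, 1816, 1731 and 1615 CPM in EPR, and 2427, 2502 and 2470 CPM in EPRSTOPE libraries. The groups did not overlap, and EPRSTOPE libraries were the highest. It rose in EPRSTOPE cells (log2 fold change 0.76, SE 0.05, edgeR adjusted p = 1.1e-07). The value for EPR against mock was 0.24 (SE 0.05, edgeR adjusted p = 0.0014), under the size required for a call. In EPR against EPRSTOPE it was called at -0.52 (SE 0.05), which became -0.48 with library totals alone or with coding transcripts only, -0.49 with the stricter filter and -0.46 without library 208, all short of the size required. *Anxa3*, which encodes an annexin of epithelia and neutrophils, stood at 551, 601 and 587 CPM in mock, 923, 956 and 921 CPM in EPR, and 1036, 924 and 968 CPM in EPRSTOPE libraries. Both overexpressing groups were above mock and overlapped each other. The log2 fold changes were 0.69 and 0.75 against mock, but with counts scaled from TPM neither was called (0.14 and 0.62, edgeR adjusted p = 0.727 and 0.0958). Its reads were spread over 9 annotated transcripts, 4 of them with a retained intron, and an overlapping gene on the same strand, *Gm42603*, held 97 to 265 counts per library. *Anxa4*, an annexin of secretory epithelia, stood at 269, 276 and 284 CPM in mock, 446, 464 and 465 CPM in EPR, and 376, 371 and 370 CPM in EPRSTOPE libraries. Here EPR and not EPRSTOPE libraries were the highest, without overlap. *Anxa4* rose with EPR (log2 fold change 0.73, SE 0.05, edgeR adjusted p = 1.3e-07), and the values of 0.43 for EPRSTOPE against mock and 0.30 for EPR against EPRSTOPE did not reach the size required.

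*Anxa13* was the annexin that was lower in EPRSTOPE cells. Its product is an annexin of intestinal and renal epithelia that is anchored to membranes by a fatty acid. The levels were 136, 149 and 136 CPM in mock, 141, 129 and 138 CPM in EPR, and 61.8, 60.4 and 58.7 CPM in EPRSTOPE libraries. Mock and EPR libraries overlapped, and each EPRSTOPE library lay below all of them. The log2 fold change was -1.22 in EPRSTOPE against mock (SE 0.06, edgeR adjusted p = 1.5e-08), 1.18 in EPR against EPRSTOPE (SE 0.06, edgeR adjusted p = 9.2e-08) and -0.04 in EPR against mock (SE 0.06, edgeR adjusted p = 0.615). *Anxa13* and *Anxa6* thus had their low value in different populations.

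*Anxa1*, *Anxa5*, *Anxa9* and *Anxa10* were called in no comparison. *Anxa1*, which encodes the glucocorticoid-induced annexin that restrains inflammation, stood at 783, 863 and 829 CPM in mock, 1055, 1066 and 1010 CPM in EPR, and 830, 788 and 784 CPM in EPRSTOPE libraries. EPR libraries lay above the others, by 0.34 on the log2 scale against mock (SE 0.05) and 0.38 against EPRSTOPE (SE 0.05), both under the size required. The difference from mock was 0.51 and passed with coding transcripts only, and was 0.04 with counts scaled from TPM. *Anxa5*, whose product is known for its binding to exposed phosphatidylserine, stood at 371, 386 and 382 CPM in mock, 308, 324 and 310 CPM in EPR, and 453, 429 and 437 CPM in EPRSTOPE libraries. The groups did not overlap, with EPR the lowest and EPRSTOPE the highest, and the log2 fold change of EPR against EPRSTOPE was -0.49 (SE 0.05). It passed the size required without library 207 (-0.51) or 210 (-0.50) and with coding transcripts only (-0.52), and was -0.21 with counts scaled from TPM. *Anxa9* and *Anxa10* lay between 0.508 and 6.44 CPM. *Anxa9* was lower in EPRSTOPE than in mock libraries without overlap (log2 fold change -0.90, SE 0.42, edgeR adjusted p = 0.101), and the groups overlapped in the other comparisons of both genes.

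**Figure D3:**
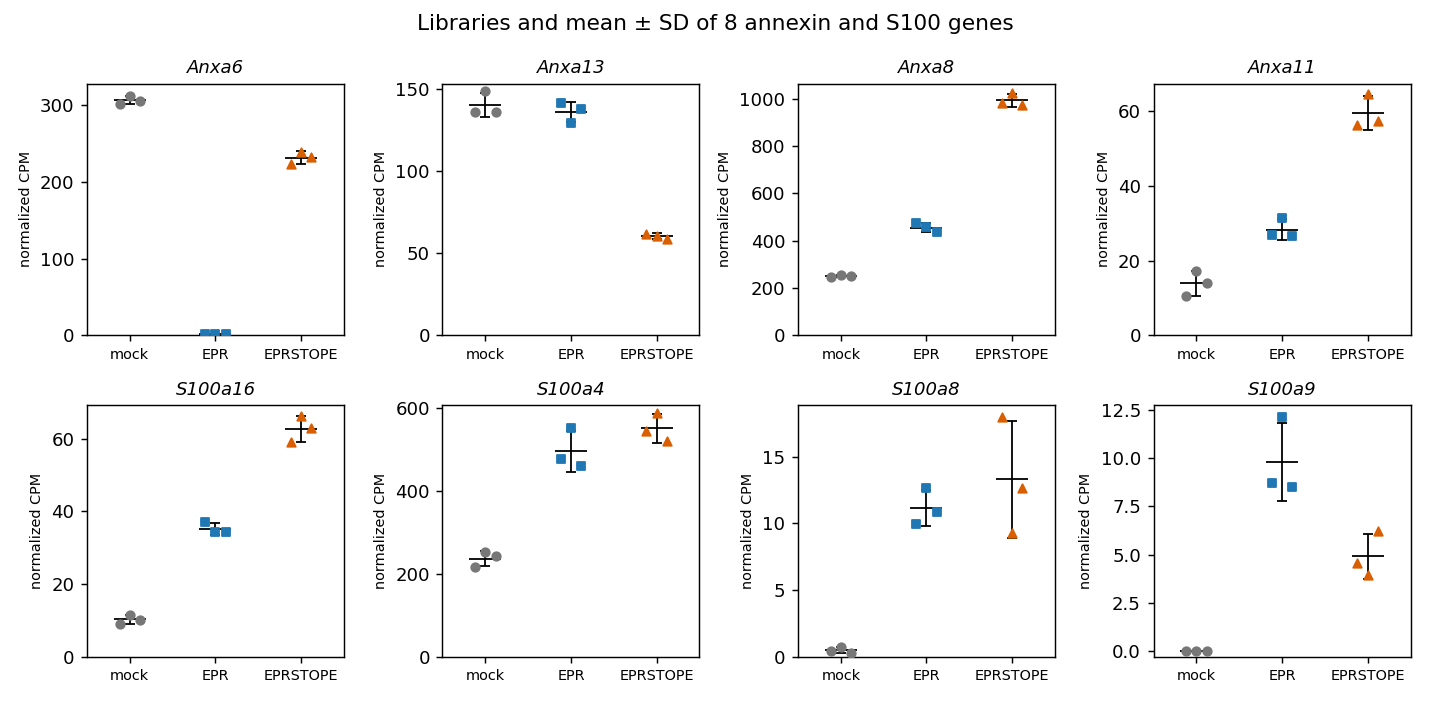
Normalized CPM (vertical axis, linear) of 8 annexin and S100 genes in each library of the mock, EPR and EPRSTOPE groups, with 1 point per library and bars for the mean ± SD of 3 libraries. *Anxa6* is near 0 in EPR libraries alone, *Anxa13* is lowest in EPRSTOPE libraries, *Anxa8*, *Anxa11* and *S100a16* step up from mock to EPR to EPRSTOPE, and *S100a8* and *S100a9* are near or at 0 in mock libraries.

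*S100a8* and *S100a9*, which encode the subunits of calprotectin, were at the counting limit in mock cells and were higher in both populations. Calprotectin is a metal-binding protein that is abundant in neutrophils and is also made by inflamed epithelia. The promoters of this pair are shown because both genes changed from near 0, beside that of *Anxa8*, whose 3 groups were separated at high levels. The windows are those of RefSeq on GRCm38.p6, from 250 bases before to 50 after the annotated start, and 23 of the 29 genes had such a window. *S100a8* is read from chr3:90668821-90669120 on the plus strand, *S100a9* from chr3:90695672-90695971 on the minus strand and *Anxa8* from chr14:34085729-34086028 on the plus strand. Capitals mark matches on either strand to TATAAA, the core of a TATA box, or to the letters TTNNGNAA, a loose form of the sites bound by C/EBP factors.
S100a8 promoter: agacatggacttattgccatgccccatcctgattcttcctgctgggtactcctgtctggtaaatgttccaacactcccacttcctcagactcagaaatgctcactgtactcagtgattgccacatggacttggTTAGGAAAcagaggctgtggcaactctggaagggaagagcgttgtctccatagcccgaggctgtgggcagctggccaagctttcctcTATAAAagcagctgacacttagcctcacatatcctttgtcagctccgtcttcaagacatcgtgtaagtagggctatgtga
S100a9 promoter: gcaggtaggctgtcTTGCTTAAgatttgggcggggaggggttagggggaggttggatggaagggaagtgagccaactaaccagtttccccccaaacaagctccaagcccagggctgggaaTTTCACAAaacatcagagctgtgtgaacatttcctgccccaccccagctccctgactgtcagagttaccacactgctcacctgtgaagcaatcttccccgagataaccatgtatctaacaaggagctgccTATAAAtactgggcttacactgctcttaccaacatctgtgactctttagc
Anxa8 promoter: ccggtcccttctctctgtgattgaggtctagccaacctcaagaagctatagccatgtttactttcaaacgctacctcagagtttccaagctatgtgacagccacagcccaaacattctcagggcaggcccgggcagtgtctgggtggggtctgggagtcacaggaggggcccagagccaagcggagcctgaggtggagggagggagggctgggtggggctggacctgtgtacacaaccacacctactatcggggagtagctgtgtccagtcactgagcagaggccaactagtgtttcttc
*S100a8* held TATAAA at position -30 and 1 match to TTNNGNAA at -117 from the annotated start. *S100a9* held TATAAA at position 0, on the annotated start itself and not before it as in *S100a8*. The *S100a9* window also held 2 matches to TTNNGNAA, both before the start. *Anxa8* held neither TATAAA nor TTNNGNAA. Of all 32851 windows of this length, 13.6% held TATAAA and 40.7% held TTNNGNAA. A match of letters describes the window and does not show that a factor binds there.

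*S100a8* stood at 0.466, 0.739 and 0.326 CPM in mock, 9.95, 12.6 and 10.8 CPM in EPR, and 18, 9.29 and 12.7 CPM in EPRSTOPE libraries. Every mock library lay below 1 CPM, and the overexpressing groups overlapped each other. It rose by 4.44 on the log2 scale with EPR (SE 0.35, edgeR adjusted p = 6.9e-07) and by 4.68 with EPRSTOPE (SE 0.35, edgeR adjusted p = 3.8e-07). *S100a9* was at 0 counts in all mock libraries and stood at 8.73, 12.1 and 8.50 CPM in EPR and 4.57, 3.95 and 6.21 CPM in EPRSTOPE libraries. Against a floor of 3 counts over the mock group it was at least 89.7-fold higher in EPR and at least 46.3-fold higher in EPRSTOPE cells (edgeR adjusted p = 7.2e-07 and 3e-06). EPR libraries lay above EPRSTOPE libraries by 0.98 on the log2 scale (SE 0.26, edgeR adjusted p = 0.0171), which was not called in the edgeR fit but was called by DESeq2 and by limma-voom (adjusted p = 0.0078 and 0.00579). Summed over 9 immune markers, levels were 3.26 to 5.59 CPM in mock, 4.36 to 6.06 CPM in EPR and 3.22 to 3.90 CPM in EPRSTOPE libraries. *Adgre1*, a macrophage marker, was at 0 throughout. *Cd68*, the only immune marker tested, averaged 1.47, 2.72 and 2.14 CPM in mock, EPR and EPRSTOPE libraries. EPR libraries lay above mock libraries without overlap for *Cd68* (log2 fold change 0.92), which was called in no comparison.

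*S100a16* and *S100a4* were higher in both populations. *S100a16*, which encodes a widely expressed S100 protein with a single functional calcium site, stood at 9.17, 11.6 and 10.2 CPM in mock, 37.1, 34.4 and 34.2 CPM in EPR, and 59.0, 66.1 and 63.1 CPM in EPRSTOPE libraries. The groups were separated and rose in the same order as for *Anxa8*. The log2 fold change was 1.76 with EPR (SE 0.10, edgeR adjusted p = 3.8e-08), 2.60 with EPRSTOPE (SE 0.10, edgeR adjusted p = 1.1e-09) and -0.83 in EPR against EPRSTOPE (SE 0.09, edgeR adjusted p = 2.5e-05), the last of which was not called with counts scaled from TPM (edgeR adjusted p = 0.017). *S100a4*, whose product binds non-muscle myosin and is known for its link to cell motility and metastasis, stood at 216, 252 and 242 CPM in mock, 476, 552 and 459 CPM in EPR, and 543, 587 and 521 CPM in EPRSTOPE libraries. Both populations lay above mock and overlapped each other, with log2 fold changes of 1.07 (SE 0.08) and 1.22 (SE 0.08) against mock that passed the test and -0.15 (SE 0.08) between them that did not.

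*S100a13*, which serves the release of fibroblast growth factor without a signal peptide, was higher in EPRSTOPE cells. It stood at 32, 37.5 and 37.0 CPM in mock, 44.8, 45.5 and 39.7 CPM in EPR, and 79.8, 78.7 and 73.3 CPM in EPRSTOPE libraries. The 3 groups did not overlap, although EPR lay close to mock. The log2 fold change was 1.12 with EPRSTOPE (SE 0.08, edgeR adjusted p = 3.8e-07), 0.28 with EPR (SE 0.08, edgeR adjusted p = 0.0152) and -0.83 in EPR against EPRSTOPE (SE 0.08, edgeR adjusted p = 1.3e-05). *S100a14* and *S100g* were rare and were called higher in both populations. *S100a14*, an S100 gene of epithelia, had 3 counts in all mock libraries together, 31 in EPR and 32 in EPRSTOPE libraries, a CPM ratio to mock of 9.69 (95% counting interval 3.02 to 49.5) and 12.6 (3.93 to 64.1). Without library 205, which held 2 of the 3 mock counts, the ratios were 16.4 (2.73 to 669) and 21.3 (3.55 to 866). It was not called with counts scaled from TPM (edgeR adjusted p = 0.0204 and 0.0159). *S100g*, which encodes the calcium buffer calbindin of gut and uterus, also had 3 mock counts, all in library 204, and 37 and 87 counts in the other two groups. Its ratio to mock was 11.6 (3.66 to 58.6) with EPR and 34.1 (11.3 to 169) with EPRSTOPE. Without library 205 the ratios were 6.53 (2.07 to 33.1) and 19.3 (6.38 to 95.2), and the EPR value was not called (edgeR adjusted p = 0.0104). Without library 204 mock cells had 0 counts, and the ratios were at least 7.68 and 22.7 against a floor of 3 counts over the other two mock libraries. *S100g* was lower in EPR than in EPRSTOPE libraries without overlap, by -1.56 on the log2 scale (SE 0.47, edgeR adjusted p = 0.0244), which was not called except by DESeq2, by limma-voom, in a fit of these 6 libraries alone or without library 204 (adjusted p = 0.00902, 0.00547, 0.00403 and 0.00667).

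*S100a6*, *S100a10* and *S100a11* were abundant but were not called against mock. *S100a6*, which encodes calcyclin, stood at 1698, 2069 and 1909 CPM in mock, 2378, 2537 and 2188 CPM in EPR, and 2417, 2664 and 2265 CPM in EPRSTOPE libraries. Mock libraries lay below all others, by 0.32 and 0.37 on the log2 scale (SE 0.08 each), under the size required. *S100a10* stood at 332, 403 and 403 CPM in mock, 305, 292 and 270 CPM in EPR, and 395, 474 and 423 CPM in EPRSTOPE libraries. EPR libraries were the lowest, with a log2 fold change of -0.58 against EPRSTOPE (SE 0.09, edgeR adjusted p = 0.00044) that was called and of -0.39 against mock (SE 0.09, edgeR adjusted p = 0.0029) that was not. *S100a11*, a partner of *Anxa1* known from keratinocyte growth arrest, stood at 146, 156 and 141 CPM in mock, 115, 111 and 103 CPM in EPR, and 113, 134 and 132 CPM in EPRSTOPE libraries. Mock libraries were the highest, by -0.43 and -0.22 on the log2 scale for EPR and EPRSTOPE (SE 0.08 each), and the EPR value passed the size required, at -0.51, with library totals alone.

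The remaining members gave no call. *S100a1*, best known from heart muscle, stood at 24.7, 28.1 and 29.8 CPM in mock, 27.3, 23.7 and 26.8 CPM in EPR, and 30.2, 33.7 and 39.4 CPM in EPRSTOPE libraries. *S100pbp* stood at 15.4, 14.9 and 15.8 CPM in mock, 16.8, 15.4 and 16.5 CPM in EPR, and 17.5, 24.2 and 21.1 CPM in EPRSTOPE libraries. For both genes the EPRSTOPE libraries lay above the others by less than 0.5 on the log2 scale. Without library 209, *S100pbp* in EPRSTOPE against mock was 0.56 and was called. *S100a3* lay between 2.02 and 6.02 CPM with overlap in every comparison. *S100a3* shares its strand and part of its span with *S100a2*, so that counts of these 2 genes are uncertain.

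Partner genes of the known annexin and S100 complexes did not keep a fixed ratio of CPM within libraries. The ratio of *Anxa2* to *S100a10*, whose products form a heterotetramer at the plasma membrane, was 3.85 ± 0.33 in mock, 5.96 ± 0.03 in EPR and 5.76 ± 0.44 with EPRSTOPE (SD, n = 3 each, exact permutation test, two-sided, p = 0.1 for each population against mock and 0.7 between them). Every EPR and EPRSTOPE library was above every mock library. For *Anxa1* to *S100a11* the ratio was 5.60 ± 0.25 in mock, 9.53 ± 0.33 with EPR and 6.39 ± 0.83 with EPRSTOPE (SD, n = 3 each), with EPR libraries above all others. *S100a8* to *S100a9* was 1.15 ± 0.12 with EPR and 2.77 ± 1.01 with EPRSTOPE (SD, n = 3 each), without overlap (exact permutation test, two-sided, p = 0.1), and has no value in mock cells. The 7 permutation tests of these ratios gave raw p-values of 0.1 or above, so that none could pass a correction.

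**Figure D4:**
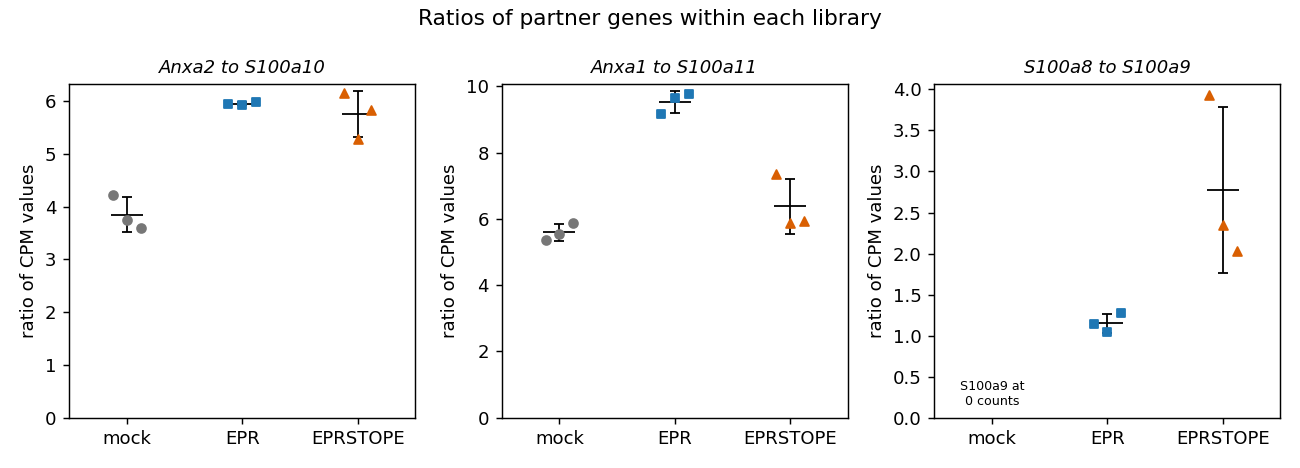
Ratio of the CPM values of partner genes (vertical axis, linear from 0) in each library of the mock, EPR and EPRSTOPE groups, with 1 point per library and bars for the mean ± SD of 3 libraries. *Anxa2* to *S100a10* is near 4 in mock and near 6 in both populations, *Anxa1* to *S100a11* is above 9 in EPR libraries alone, and *S100a8* to *S100a9* is higher in EPRSTOPE than in EPR libraries.

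Compared per length, in TPM, the deposited share of transcripts scaled to 1000000, *S100a6* was the most abundant member in every group, at 6274 ± 283 TPM in mock, 6956 ± 678 TPM with EPR and 6467 ± 411 TPM with EPRSTOPE (SD, n = 3 each). *Anxa2* came next in mock cells at 1383 ± 87 TPM and in EPRSTOPE cells at 2023 ± 399 TPM (SD, n = 3 each). In EPR cells *S100a4* at 1256 ± 229 TPM and *Anxa2* at 1205 ± 143 TPM (SD, n = 3 each) overlapped and could not be ordered. *Anxa8* moved from rank 11 in mock to rank 7 in EPRSTOPE cells, at 142 ± 11 and 534 ± 87 TPM (SD, n = 3 each). In EPRSTOPE libraries it overlapped *Anxa1* at rank 6, so these ranks could not be ordered.

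The annexin genes are spread over the genome, and their changes were set beside those of 20 neighbouring tested genes. These neighbours were taken in equal numbers from both sides of each gene. *Anxa7*, *Anxa8* and *Anxa11* lie on chromosome 14, whose tested genes had a median log2 fold change of 0.49 with EPR and 0.59 with EPRSTOPE. The 20 neighbours had medians of -0.31 and -0.25 around *Anxa7* and -0.35 and -0.25 around *Anxa8*, below the genes' own values, and 0.07 and 0.19 around *Anxa11*. Around *Anxa13* on chromosome 15 the neighbours had medians of 0.60 and 0.64, against -0.04 and -1.22 for *Anxa13* itself. *Anxa6* had neighbours near 0, at -0.07 with EPR and -0.01 with EPRSTOPE. Around *Anxa1* on chromosome 19 the medians were 0.18 and -0.52, against 0.34 and -0.04 for *Anxa1*.

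**Figure D5:**
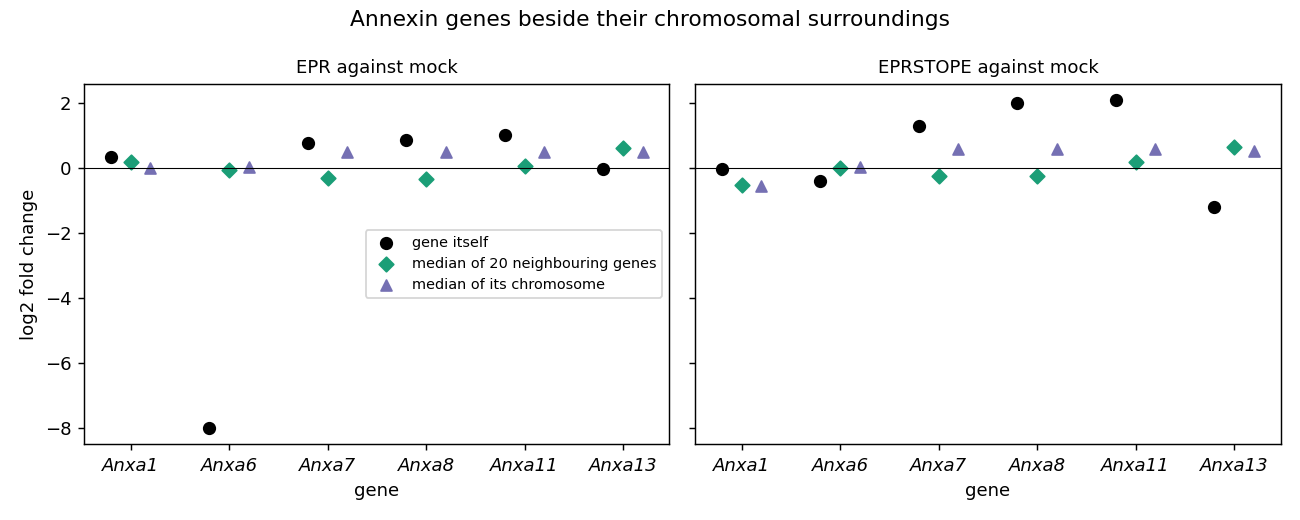
Log2 fold change (vertical axis) of 6 annexin genes (horizontal axis) in EPR against mock and in EPRSTOPE against mock, beside the median of 20 neighbouring tested genes, taken equally from both sides, and of all tested genes of the same chromosome. *Anxa6* with EPR and *Anxa13* with EPRSTOPE lie well below their neighbours, and *Anxa7*, *Anxa8* and *Anxa11* lie above theirs.

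Of the S100 genes, 13 lie on chromosome 3, and 11 of these, all but *S100a10* and *S100a11*, lie between 90511034 and 90695721 (GRCm38). Of the 11 tested S100 genes of this chromosome, 5 were higher with EPR and 6 with EPRSTOPE, against 15.2% and 15.6% of all genes. Among those higher in both, *S100a8*, *S100a9* and *S100a14* passed the filter through the overexpressing libraries alone and could hardly be called lower. Calls were not shared by all close neighbours. *S100a13* and *S100a1* lie head to head, and the first was higher in EPRSTOPE cells while the second was not called. *S100a7a*, an S100 gene of the same cluster whose symbol was not matched by the rule and which was added after its values were seen, stood at 40.5, 47.1 and 45.3 CPM in mock, 85.7, 77.4 and 65.9 CPM in EPR, and 123, 103 and 127 CPM in EPRSTOPE libraries. Its groups did not overlap and its log2 fold changes were 0.78 (SE 0.11), 1.40 (SE 0.11) and -0.62 (SE 0.10) in EPR against EPRSTOPE, all called.

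The epidermal differentiation complex also holds genes outside the S100 family, many of which encode proteins of the cornified envelope. Of 29 listed genes 12 were tested. With EPR 9 were higher and none was lower, against 15.2% and 12.9% of all genes, and with EPRSTOPE 8 were higher and 1 was lower, against 15.6% and 12.4%. Most of those higher, *Sprr2h* and *Sprr2a3* among them, were under 1 CPM in every mock library. Such genes passed the filter through the overexpressing libraries alone and could hardly be called lower against mock, so the one-sided counts say little about them. *Sprr1a* was the one with opposite calls, at 80.3 CPM in mock, 289 CPM in EPR and 33.8 CPM in EPRSTOPE cells on average (log2 fold change 1.84, SE 0.12, and -1.24, SE 0.12). *Sprr1b* went from 10.7 CPM in mock to 31.7 CPM in EPR and 67.7 CPM in EPRSTOPE cells, and *Sprr2h* from 0.193 to 22.9 and 54.1 CPM. The *Sprr2* genes are near-identical copies, and the split of reads among them is uncertain.

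Genes around the complex of annexin A2 and S100A10, which gathers plasminogen and its activators at the cell surface, were higher for 4 of 10 and lower for 2 with EPR, against 15.2% and 12.9% of all genes, and higher for 5 and lower for 2 with EPRSTOPE, against 15.6% and 12.4%. Of these, *Serpinb2*, higher in both, was under 1 CPM in every mock library and passed the filter through the overexpressing libraries alone. *Plat*, tissue plasminogen activator, was at 23.0 CPM in mock, 265 CPM in EPR and 341 CPM in EPRSTOPE cells on average (log2 fold change 3.51, SE 0.10, and 3.88, SE 0.10). *Plau*, the urokinase gene, was called in EPRSTOPE cells, at 29.4, 32.1 and 112 CPM in the 3 groups, and differed between EPR and EPRSTOPE by -1.80 on the log2 scale (SE 0.08, edgeR adjusted p = 1.6e-08). *Serpinb2*, which encodes an inhibitor of both activators, rose from 0.385 to 3.62 and 18.9 CPM (log2 fold change 2.98 and 5.35, or 3.80 and 6.16 without library 205), while *Plgrkt*, a plasminogen receptor, was lower with EPRSTOPE at 36.2, 30.5 and 14.6 CPM in the 3 groups. *Plgrkt* had a log2 fold change of -1.31 with EPRSTOPE and lies on chromosome 19, whose tested genes had a median of -0.55 there. The part of this wider shift was not tested. *Ahnak2*, which belongs to the giant scaffold proteins bound by this complex, rose from 170.0 to 338 and 541 CPM. *Ahnak*, the more abundant scaffold of this kind, was added after its values were seen and was called lower with EPR (log2 fold change -0.57, SE 0.05), while its value with EPRSTOPE was -0.30 (SE 0.05). *Dlc1*, whose product is bound by S100A10, fell from 19.8 to 4.30 and 3.21 CPM.

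Of 6 tested genes for receptors of S100 proteins or of annexin A1, 3 were higher with EPR, 4 with EPRSTOPE and none was lower, against 15.2% and 15.6% of all genes higher. *Tlr4*, a receptor for calprotectin, rose from 11.2 CPM in mock to 44.2 CPM in EPR and 48.9 CPM in EPRSTOPE cells (log2 fold change 1.98, SE 0.13, and 2.12, SE 0.13). *Alcam* rose from 88.5 to 179 and 188 CPM, *Sdc1*, a heparan sulphate proteoglycan, from 322 to 508 and 767 CPM, and *Sdc4* was called with EPRSTOPE at 326, 351 and 724 CPM in the 3 groups. The call of *Sdc1* with EPR was lost with counts scaled from TPM, at 0.45 on the log2 scale. Among 9 tested membrane repair genes, 3 were higher and 1 was lower with EPR, and 3 were higher and none was lower with EPRSTOPE, against 15.2% and 12.9%, and 15.6% and 12.4%, of all genes. *Cav1*, the caveolin of plasma membrane pits, rose from 246 to 522 and 888 CPM. *Cavin1*, its coat partner, fell with EPR, at 578, 372 and 562 CPM in the 3 groups, and differed by -0.60 between EPR and EPRSTOPE (SE 0.06). *Capn1*, a calcium-dependent protease, rose with EPR, at 60.8, 95.9 and 43.1 CPM, and *Capns1*, the small calpain subunit, rose in both populations, at 79.2, 132 and 146 CPM, but was called in neither with counts scaled from TPM or with coding transcripts only.

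Of 17 tested genes for intracellular partners, 4 were higher and 2 lower with EPR, against 15.2% and 12.9% of all genes, and 5 were higher and 2 lower with EPRSTOPE, against 15.6% and 12.4%. *Mdm2*, the p53 ubiquitin ligase, rose from 77 to 388 and 288 CPM (log2 fold change 2.33 and 1.90), but was called in neither population with coding transcripts only (1.35 and 1.43). *Myh10*, a non-muscle myosin bound by S100 proteins, fell from 193 to 42.9 and 47.0 CPM. *Tgm2*, the tissue transglutaminase, rose from 74.1 to 173 and 256 CPM, and *Sri*, which encodes the annexin A7 partner sorcin, was called with EPRSTOPE at 55.4, 69.6 and 109 CPM in the 3 groups. *Ezr*, which encodes the membrane-actin linker ezrin, rose with EPR, at 444, 701 and 585 CPM, a call that was lost with counts scaled from TPM, at 0.45 on the log2 scale.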

How the data were processed

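RNA-Seq was measured in 9 libraries, whose groups were taken from the genotype labels and whose library numbers served as replicate names. Per the labels, libraries followed the TruSeq Stranded Total RNA protocol with paired-end reads. The authors quantified reads per transcript with Kallisto 0.43.1 on the mouse Gencode vM15 transcripts (GRCm38) and deposited the estimated counts of 131100 transcripts, not normalized. The TPM values were also deposited by the authors, who divided counts by effective length and scaled each library to 1000000. The setting for strand is not given in the sources used here.

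Here estimated counts were summed per gene symbol and rounded to whole numbers, because the test needs counts. edgeR 4.0.16 in R 4.3.3 was run with TMM factors and a model of 1 factor with 3 levels across the whole table, and SEs were taken from its F statistic. CPM values are TMM-normalized. TPM was used to order levels between genes, with no test. The test was first tried on simulated counts with known changes. Counting intervals are exact and they, like the floor of 3 counts, cover counting error only. Alternatives were DESeq2 1.42.0, limma 3.58.1 with voom, other scalings, filters, transcripts, count types, thresholds and samples in the fit, and leaving out each library. Positions came from Gencode M21 (GRCm38) and promoter windows from RefSeq (GRCm38.p6). Python 3.11.15 with scipy 1.17.1, numpy 2.4.6, pandas 2.3.3 and matplotlib 3.10.9 did the rest.

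The members, the gene lists and the tests were chosen with earlier results of these data known. Values in each library are given for members above a mean of 10 CPM in the highest group and for *BC030870*. *S100a9*, just under that mean, *S100a7a* and *Ahnak* were added after their values were seen. Of each related list, at most 6 genes with the largest log2 fold change were named, among those called in at least 1 comparison and above 10 CPM in the highest group. Some genes of these lists are not reported here by name. Levels of the marker lists are given in the report.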

Additional observations from a re-analysis of the deposited data

Results flagged for a closer look

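Of the 25 tested members, 9 were called in EPR against EPRSTOPE, a test of the difference itself, against 13.2% of all genes. From these 9, 5 genes are listed here. Only 1 of the populations, or neither, was called against mock for these genes. The share of all genes with this pattern was not determined, so the count of 5 has no background beside it. The log2 fold change of EPR against EPRSTOPE was -7.58 for *Anxa6*, 1.18 for *Anxa13*, -0.83 for *S100a13*, -0.58 for *S100a10* and -0.52 for *Anxa2*, all from edgeR with an adjusted p of 0.00044 or less and without overlap between libraries. The call of *Anxa2* between the populations was lost in 4 of 19 alternative settings. *Anxa6* was called against mock in EPR cells, *Anxa13*, *S100a13* and *Anxa2* in EPRSTOPE cells, and *S100a10* in neither. *Anxa6* with EPRSTOPE, and *Anxa2* and *S100a10* with EPR, had an edgeR adjusted p under 0.01 against mock and missed the call by size alone. EPR and EPRSTOPE cells also differed in the amount of EPR RNA, and its part in these differences cannot be told apart from that of the peptide.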

How the results depend on the processing

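With an adjusted p under 0.05 and no size required, all-gene calls were 3787 higher and 3691 lower (EPR against mock), 3892 and 3550 (EPRSTOPE against mock) and 2154 and 2483 (EPR against EPRSTOPE), in place of 2336 and 1980, 2399 and 1903, and 1055 and 976. Among the annexin and S100 genes, lower calls became 4 with EPR and 3 with EPRSTOPE, and 4 were higher in EPR against EPRSTOPE. Counts scaled from TPM gave 1282 and 1203 lower against mock, and 479 higher and 461 lower in EPR against EPRSTOPE. At least 10 counts in every library left 7 annexin and S100 genes higher with EPR, since rarely detected genes were not tested. With library totals alone, 2 were lower with EPR and 2 with EPRSTOPE, the all-gene median of EPRSTOPE against mock moved from -0.04 to -0.16, and its calls became 1982 higher and 2503 lower. DESeq2, limma-voom and no filter gave 2 higher in EPR against EPRSTOPE.

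Uncalled values that turned sign were, with counts scaled from TPM, *Anxa2* (-0.0046) and *S100pbp* (-0.16) with EPR, *Anxa5* (-0.27) and *Cavin1* (0.024) with EPRSTOPE, and *S100a6* (0.12) and *Myh10* (0.071) in EPR against EPRSTOPE. With coding transcripts only, they were *Anxa1* (0.12) with EPRSTOPE and *Anxa3* (0.13) and *Mdm2* (-0.081) in EPR against EPRSTOPE. With library totals alone, *S100a3* became -0.053 and -0.0019 against mock. Leaving out 1 library each, *S100a3* ran from -0.29 to 0.32 with EPR, -0.20 to 0.41 with EPRSTOPE and -0.20 to 0.016 in EPR against EPRSTOPE, *Anxa9* from -0.24 to 0.13 with EPR, and *S100a6* from -0.10 to 0.019 and *S100a8* from -0.45 to 0.029 in EPR against EPRSTOPE. The cause of these changes was not tested. No called annexin or S100 gene turned sign under any alternative run. No paired analysis was possible because the groups share no replicate numbers. Depth limits genes near 3 counts per library, *S100a9*, *S100a14* and *S100g* in mock cells above all.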
